A study of Mus musculus with 93 samples.

Results

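Macrophages isolated from the mouse fetus at embryonic stage E18.5 were compared with those at E14.5 in brain, kidney, liver, lung and skin. The comparison takes the 19 libraries labelled Mac with 1 of these 5 tissues and 1 of these ages, out of 93 libraries in the series. At E14.5 there were 9 libraries, 2 each of brain, kidney, lung and skin and 1 of liver, and at E18.5 there were 10, 2 of each tissue. The series follows macrophages and their progenitors through development by SMART-Seq2, which amplifies full-length polyA RNA from small amounts of cells. No treatment, strain, genotype, sex or sort gate is named in the labels used here. The replicates are described as technical and biological without saying which is which, so p-values measure the spread between these libraries, which may be technical.

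Tissue-resident macrophages arise from embryonic precursors that seed the organs early and then take on organ-specific programmes, as microglia in the brain, Kupffer cells in the liver, alveolar macrophages in the lung and Langerhans cells in the epidermis. They clear dying cells through scavenger receptors, supply growth factors and present peptides on MHC class I and class II molecules. Type I interferons act through transcription factors that bind a short promoter motif, the interferon-stimulated response element (ISRE), and switch on antiviral genes such as the Oas and Ifit families, Isg15 and Irf7.

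Levels are log2 values of a gene's summed transcripts. They end below at a floor of 5.38, so a gene that leaves the floor has a difference whose size depends on where the floor was set. Between 18549 and 23927 transcripts per library lay above it. The mean was 21467 ± 1853 (SD, n = 9) at E14.5 and 22254 ± 1806 (SD, n = 10) at E18.5, and the difference within tissues of 866.5 did not exceed the spread (exact permutation test of ages within tissues, two-sided, p = 0.333).

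Macrophage markers were high in each library. Csf1r, the receptor for the main macrophage growth factor, ranged from 14.28 to 15.49 at E14.5 and from 14.32 to 15.98 at E18.5, and Adgre1, the gene of a surface antigen that marks mouse macrophages, from 10.89 to 13.25 and from 11.17 to 13.31. The mean level of 24 macrophage core genes ranged from 10.83 to 12.23 and from 11.35 to 12.69. Sall1, the transcription factor of microglia, was at 12.71 and 13.04 and then at 12.40 and 12.04 in brain. Outside the brain it was above the floor only in kidney at E14.5, at 9.48 and 5.76.

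**Figure D1:**
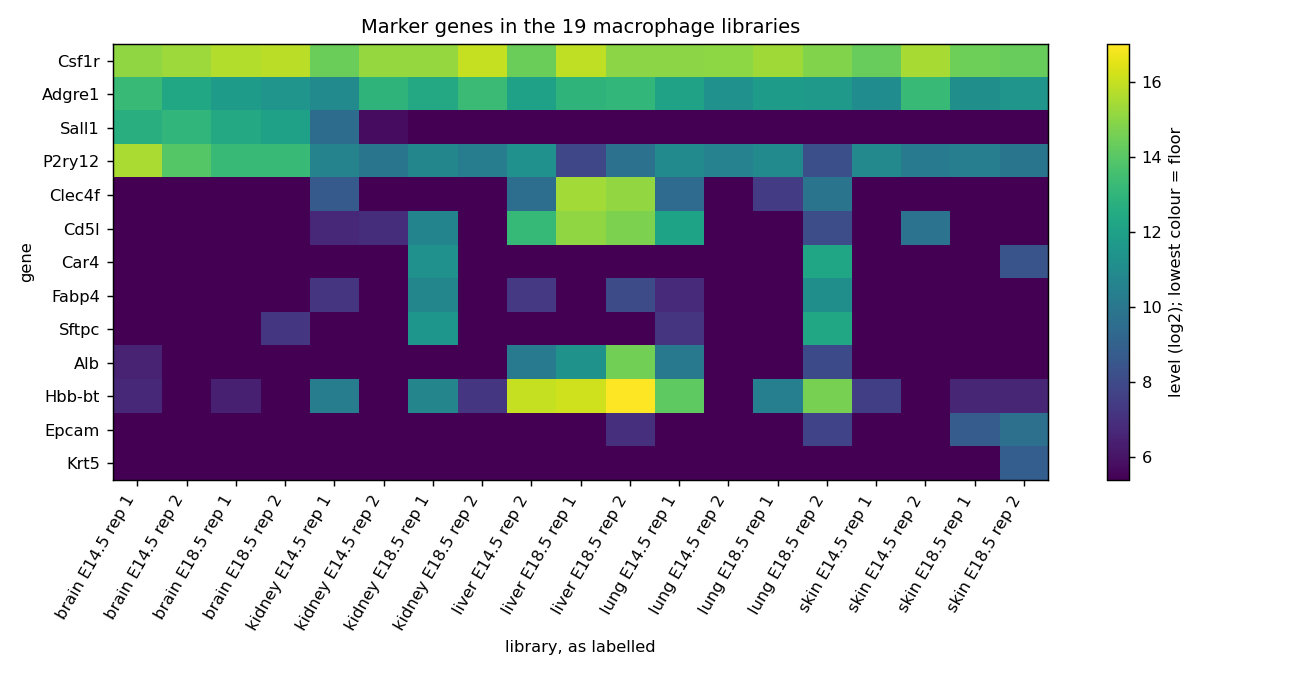
Level (log2, colour; the lowest colour is the floor) of 13 marker genes (rows) in the 19 libraries as labelled (columns). Csf1r and Adgre1 are high throughout and Sall1 marks the brain, while the lung genes Car4, Fabp4 and Sftpc are high in the libraries labelled kidney E18.5 replicate 1 and lung E18.5 replicate 2 and at the floor in the one labelled lung E18.5 replicate 1.

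Some libraries stood apart. The interferon, MHC class I and fetal growth list counts and the counts of called genes in kidney and lung are also given without some of them. Other results, among them most values of single genes, use all libraries as labelled unless stated. The library labelled kidney E18.5 replicate 1 held lung genes, with the surfactant protein gene Sftpc at 11.48 and the alveolar macrophage genes Car4 at 11.26, Fabp4 at 10.72 and Pparg at 10.93. In the library labelled lung E18.5 replicate 1, Sftpc, Car4 and Fabp4 were at the floor, while lung E18.5 replicate 2 had them at 12.30, 12.23 and 11.18. These 2 libraries go against their labels; they were used as labelled, and left out in an alternative chosen after seeing the data.

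The library labelled lung E14.5 replicate 1 held RNA of other cells, with the erythroid gene Hbb-bt at 14.12, the hepatocyte genes Alb and Afp at 10.10 and 10.13 and the Kupffer cell gene Cd5l at 12.12. All of these were at the floor in lung E14.5 replicate 2. The Y-linked genes Ddx3y and Eif2s3y were at the floor in replicate 1 of kidney, liver, lung and skin at E18.5 and above 8 in the other 15 libraries. In bulk libraries, fewer cells of a type and less RNA per cell cannot be told apart.

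No gene passed the test for a difference shared by the 5 tissues. Of 9564 genes tested, 0 (0%) had an adjusted p under 0.05 with a log2 difference of at least 1 in limma with tissue as covariate and Benjamini-Hochberg adjustment, and the smallest adjusted p was 0.109. At an unadjusted p under 0.05, 421 genes (4.4%) were higher and 580 (6.06%) lower at E18.5. The higher genes made up 42.1% of these, and 53.2% with quantile normalization and 66.4% with median centring, which moved the median difference of all genes by 0.18. The number called was 8 without brain E14.5 replicate 2 and 7 without the library labelled lung E14.5 replicate 1.

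The genes with the smallest p, chosen here after their values were seen, were separated in most tissues. Per3, a period gene of the circadian clock, ranged from 9.61 to 12.37 (median 10.80) at E14.5 and from 5.49 to 10.14 (median 8.58) at E18.5. Both E18.5 libraries lay below the E14.5 libraries in all 5 tissues, as they did for 0.157% of genes tested, with a difference of -2.79 ± 0.53 (SE; limma, adjusted p = 0.109). Pid1, a regulator of insulin signalling, ran the other way, from 5.38 to 10.19 (median 9.56) at E14.5 to 9.08 to 11.82 (median 11) at E18.5. It was higher in all 5 tissues without overlap, as were 0.0523% of genes, with a difference of 2.11 ± 0.40 (SE; limma, adjusted p = 0.109).

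Tsc22d3, a glucocorticoid-induced leucine zipper protein, was also higher without overlap in all 5 tissues, with a difference of 2.60 ± 0.59 (SE; limma, adjusted p = 0.132). Zfp57, which maintains imprints, ranged from 6.27 to 11.83 (median 9.33) at E14.5. At E18.5 it was at 8.72 and 9.67 in brain and at the floor in the other 8 libraries (difference -3.07 ± 0.64 SE, limma, adjusted p = 0.132). Srpk2, a kinase of splicing factors, and Ednrb, the endothelin B receptor, had lower means in all 5 tissues and no overlap in 4 of them (2% of genes), with differences of -2.41 ± 0.48 and -2.89 ± 0.64 (SE; limma, adjusted p = 0.132 for both).

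The interferon-response genes lay higher at E18.5, most of all in kidney, liver and lung. Of the 26 genes on this list 24 were tested over the 5 tissues; 17 of them were higher at an unadjusted p under 0.05 and none lower, against 4.4% and 6.06% of all genes, and none passed after adjustment. Their median difference was 1.59, beside -0.08 for all genes. Genes entered this fit if they reached 6.38 in at least 9 libraries. Some members, such as Isg15 and Oas3, had E14.5 medians below 6.38 and entered mainly through E18.5 libraries, so the count describes the list. The mean level of the list ran from 6.52 to 8.37 at E14.5 (median 8.04) and from 7.70 to 11.07 at E18.5 (median 9.66).

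In kidney the mean level of the list was 8.04 and 8.37 at E14.5 and 9.69 and 10.47 at E18.5, in liver 8.06 and then 10.92 and 10.21, and in lung 8.03 and 7.78 and then 11.07 and 9.64. In these 3 tissues the ages did not overlap. In brain it was 6.52 and 7.87 and then 7.87 and 7.70, and in skin 8.26 and 8.07 and then 8.91 and 8, so the ages overlapped. The median differences of the 26 members were 2.04 in kidney, 2.12 in liver, 2.34 in lung, 0.86 in brain and 0.64 in skin.

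Counted by tissue at an unadjusted p under 0.05, 12 of the 26 members were higher in kidney and 1 lower, where 3.55% of all genes were higher and 4.69% lower. In liver 6 were higher and none lower (4.56% and 3.27% of all genes), and in lung 12 were higher and none lower (2.53% and 2.38%). In brain none passed in either direction (4.07% and 4.91%), and in skin none was higher and 1 lower (4.87% and 4.85%). After adjustment Oasl2 in liver was the 1 member called.

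Without the 2 libraries that go against their labels, 12 of 22 members tested over the 5 tissues were higher at an unadjusted p under 0.05 and none lower, with a median of 1.35. Without these and the library labelled lung E14.5 replicate 1, 10 of 22 were higher and 1 lower (median 1.29), beside 4.86% and 7.1% of all genes. Within kidney 8 of the 26 were then higher and none lower (3.11% and 3.2% of all genes; median 2.19), and within lung 5 were higher and none lower (3.52% and 1.88%; median 1.5). The E18.5 libraries that remained in kidney and lung stood at 10.47 and 9.64, above both E14.5 libraries of their tissue.

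**Figure D2:**
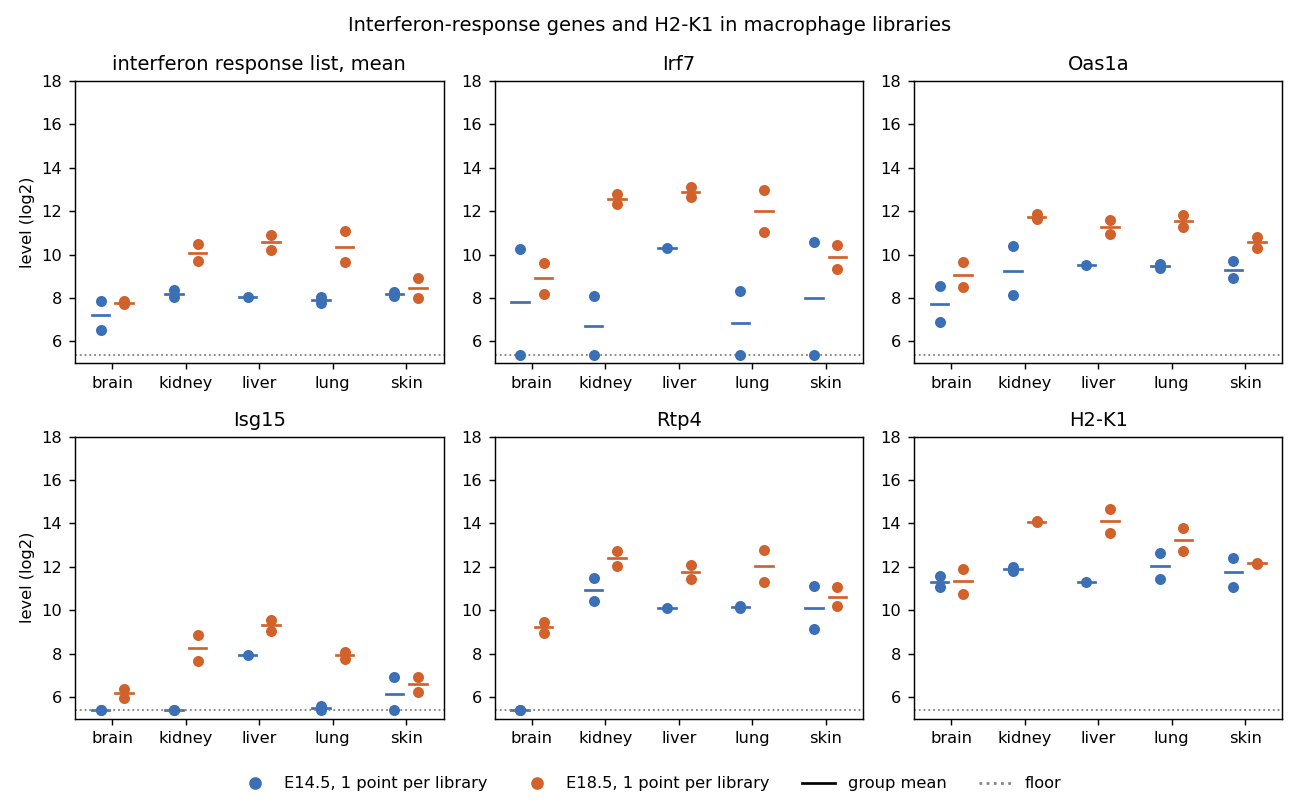
Level (log2) of the interferon-response list (mean of 26 genes) and of 5 genes in each library, by tissue; blue points are E14.5, orange points E18.5, bars the group means and the dotted line the floor. The orange points of the list lie above the blue ones in kidney, liver and lung and overlap with them in brain and skin.

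Irf7, the transcription factor that amplifies the interferon response (chr7:141262706-141266481, minus strand, mm10), ranged from 5.38 to 10.58 (median 8.07) at E14.5 and from 8.19 to 13.10 (median 11.70) at E18.5. At E18.5 it stood at 12.34 and 12.77 in kidney, 13.10 and 12.65 in liver and 12.99 and 11.06 in lung, above all 9 libraries of E14.5. In brain it was at 5.38 and 10.28 and then at 8.19 and 9.61, and in skin at 5.38 and 10.58 and then at 10.46 and 9.34, and the ages overlapped. The ages did not overlap in 3 tissues, as for 6.47% of genes tested, and the difference over the 5 tissues was 3.37 ± 0.78 (SE; limma, adjusted p = 0.132).

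Oas1a, a sensor of double-stranded RNA (chr5:120896256-120907521, minus strand), ranged from 6.89 to 10.39 (median 9.38) at E14.5 and from 8.49 to 11.85 (median 11.11) at E18.5. Its difference of 1.78 ± 0.38 (SE; limma, adjusted p = 0.132) was made up of values from 1.25 in skin to 2.49 in kidney. In 4 tissues both E18.5 libraries exceeded the E14.5 libraries, as for 0.931% of genes tested. Rtp4, an interferon-induced chaperone of receptors, was at the floor in both brain libraries of E14.5 and at 8.94 and 9.47 in those of E18.5, and its difference over the tissues was 1.88 ± 0.42 (SE; limma, adjusted p = 0.132).

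Isg15, a ubiquitin-like modifier (chr4:156199424-156200818, minus strand), was at the floor in 6 of the 9 libraries of E14.5 and at 5.97 to 9.53 in the 10 of E18.5. Kidney went from the floor to 7.66 and 8.86, and skin, with 6.92 and 5.38 and then 6.93 and 6.22, overlapped (difference 1.59 ± 0.44 SE, limma, adjusted p = 0.227).

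The promoters of 4 of these genes are shown because they hold the motif that the interferon pathway reads. Each runs from 250 bases before the transcription start to 50 after it, 5′ to 3′ in the sense of the gene (RefSeq, GRCm38.p6). Capitals mark each match to the core of the ISRE, which is GAAA, any 2 bases and GAAA again, on either strand.
Isg15: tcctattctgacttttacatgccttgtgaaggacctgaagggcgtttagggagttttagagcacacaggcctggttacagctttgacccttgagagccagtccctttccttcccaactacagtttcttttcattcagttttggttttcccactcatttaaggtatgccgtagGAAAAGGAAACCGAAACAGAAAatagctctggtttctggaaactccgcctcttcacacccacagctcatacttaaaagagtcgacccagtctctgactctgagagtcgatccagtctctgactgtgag
Oas1a: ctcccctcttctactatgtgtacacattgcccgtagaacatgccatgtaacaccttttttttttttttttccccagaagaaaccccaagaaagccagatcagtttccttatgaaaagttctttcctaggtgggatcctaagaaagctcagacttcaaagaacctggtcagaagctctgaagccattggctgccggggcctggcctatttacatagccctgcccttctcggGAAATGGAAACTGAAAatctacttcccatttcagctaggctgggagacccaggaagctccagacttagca
Ifit3: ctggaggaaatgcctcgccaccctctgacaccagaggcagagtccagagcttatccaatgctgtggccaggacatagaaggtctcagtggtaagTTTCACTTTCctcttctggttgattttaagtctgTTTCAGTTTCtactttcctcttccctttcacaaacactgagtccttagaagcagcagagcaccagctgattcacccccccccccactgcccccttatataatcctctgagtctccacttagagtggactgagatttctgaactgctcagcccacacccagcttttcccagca
Oas3: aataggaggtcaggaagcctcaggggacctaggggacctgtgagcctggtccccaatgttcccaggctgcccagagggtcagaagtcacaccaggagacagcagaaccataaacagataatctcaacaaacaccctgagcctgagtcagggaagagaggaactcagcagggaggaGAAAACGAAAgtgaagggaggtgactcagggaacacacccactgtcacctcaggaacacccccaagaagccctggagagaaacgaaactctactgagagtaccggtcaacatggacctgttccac
They lie at chr4:156200769-156201068 (minus strand), chr5:120907476-120907775 (minus), chr19:34583279-34583578 (plus) and chr5:120777610-120777909 (minus). Isg15 holds 3 overlapping matches and Oas1a 2, Ifit3 holds 2 separate ones on the opposite strand, and Oas3 holds 1. The motif was found in 13 of the 20 interferon-list genes with a promoter sequence (65%), beside 3.99% of all 27025 genes with one. The promoters of Irf7, Oasl2 and Xaf1 had no match in this window, and Gbp7, which had one, was the 1 tested member with a negative difference over the tissues. Ifit3, an interferon-induced tetratricopeptide protein, and Oas3, a long relative of Oas1a, differed by 2.22 ± 0.83 and 2.24 ± 0.59 (SE; limma, adjusted p = 0.336 and 0.199). A match describes letters only.

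Genes of MHC class I presentation lay higher in kidney, liver and lung too. Each of the 14 members tested over the 5 tissues had a positive difference, where 4316 of all 9564 genes did, and 7 had an unadjusted p under 0.05, beside 4.4% of all genes. None passed after adjustment, and the median was 1.19. Without the 2 libraries that go against their labels, 13 of 14 were positive and 6 had such a p. The medians by tissue were 2.08 in kidney, 1.37 in liver, 1.22 in lung, 0.72 in skin and 0.01 in brain, and without the 2 libraries 2.20 in kidney and 0.68 in lung.

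H2-K1, a class I heavy chain (chr17:33996017-34000347, minus strand), was at 11.80 and 12.01 and then 14.05 and 14.11 in kidney, and at 11.31 and then 14.66 and 13.54 in liver. In brain it was at 11.59 and 11.05 and then 10.76 and 11.89, and the ages overlapped. H2-D1, another heavy chain, passed the test in kidney, where it rose from 11.31 and 11.48 to 14.03 and 14.58 (difference 2.91 ± 0.52 SE, limma, adjusted p = 0.0483). This call was lost in 30 of 36 alternatives, among them the omission of any 1 of the 4 kidney libraries, and the difference without the library labelled kidney E18.5 replicate 1 was 3.18. Class I genes are near-copies of each other, so reads may be shared among them, and this holds for the Oas genes too.

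**Figure D3:**
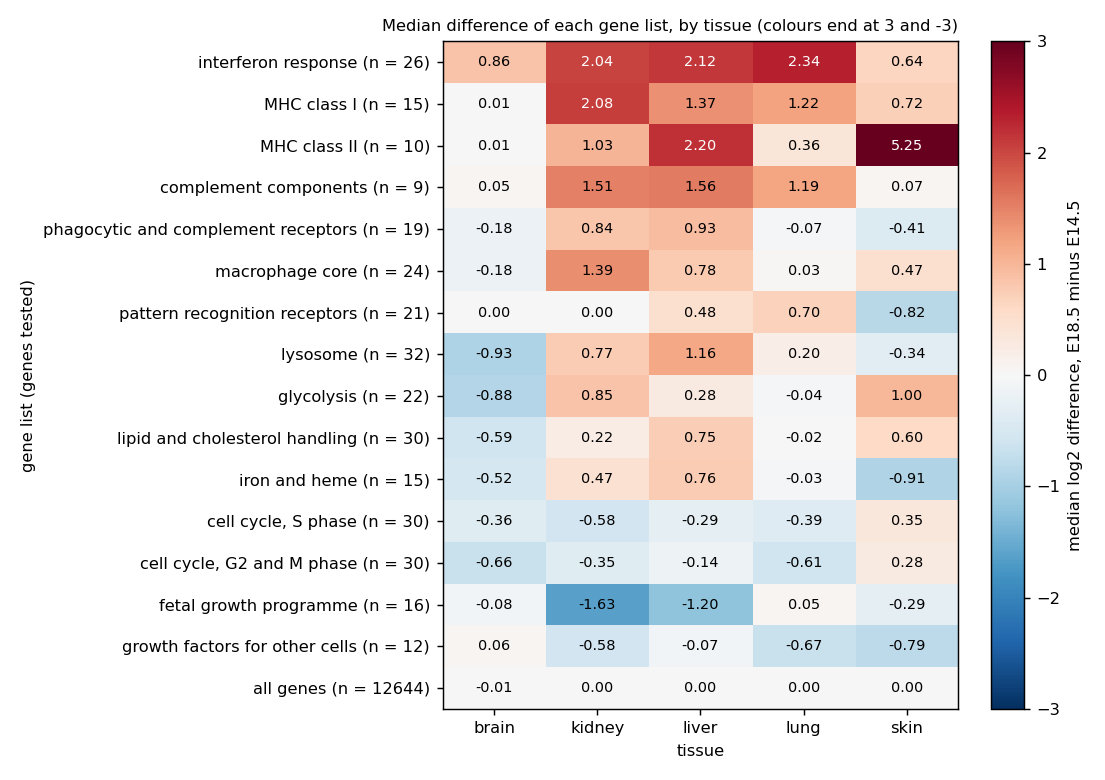
Median log2 difference, E18.5 minus E14.5 (colour and number), of 15 gene lists and of all genes tested (rows, with the number of genes) in each tissue (columns). The interferon row is at 2.04 or more in kidney, liver and lung, the MHC class II row is at 5.25 in skin and 2.20 in liver, and all genes are near 0 in each tissue.

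In skin, MHC class II genes rose, and the called genes that fell included the endocytic receptor genes Mrc1, Stab1 and Lyve1. Skin had 68 called genes of 12644 (0.538%), 35 higher (0.277%) and 33 lower (0.261%), and 9.72% had an unadjusted p under 0.05. H2-Ab1, a class II chain (chr17:34257689-34269419, plus strand), was at the floor in both E14.5 libraries and at 12.03 and 13.52 at E18.5 (difference 7.40 ± 1.26 SE, limma, adjusted p = 0.0109). Cd74, the class II invariant chain, was at 5.38 and 8.14 and then at 13.22 and 14.72 (difference 7.21 ± 1.33 SE, limma, adjusted p = 0.0195). For both genes the ages were far apart.

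Of 10 class II genes 5 rose in skin and none fell, with a median difference of 5.25, beside 0 for all genes. H2-Aa went from the floor to 10.55 and 12.65 and H2-Eb1 from the floor to 10.27 and 12.22 (limma, adjusted p = 0.00681 and 0.00816). The fifth was Ciita, the class II transactivator, at the floor and then at 8.24 and 7.31. Members at the floor elsewhere entered the fit through these skin libraries, so the count describes the list. In the other 4 tissues no class II gene was called, but in liver 4 of the 10 were higher at an unadjusted p under 0.05, beside 4.56% of all genes, with a median difference of 2.20. The mean level of the list there was 5.56 and then 7.55 and 7.99, and H2-Ab1 was at 9.84 and 8.37 at E18.5. The median differences were 1.03 in kidney, 0.36 in lung and 0.01 in brain. Over the 5 tissues, skin included, 4 class II genes were tested, with a median of 2.76. All 4 were higher at an unadjusted p under 0.05, beside 4.4% of all genes, and none passed after adjustment. Cd74 had an E14.5 median of 5.5 and was at 7.76 or more in each E18.5 library. The E18.5 libraries sufficed for its entry into this fit, so the count describes the list.

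Adhesion genes of epithelia and Langerhans cells were called with them. Cdh1 (E-cadherin) rose from the floor to 11.71 and 12.35 and Epcam from the floor to 8.75 and 9.65 (limma, adjusted p = 0.0196 and 0.0271). Langerin (Cd207), the defining Langerhans cell gene, was at the floor in all 4 skin libraries. The keratin genes Krt5 and Krt14 were at the floor in skin at E14.5, and at E18.5 they were at 5.38 and 8.85 and at 6.58 and 8.09 in replicates 1 and 2. The mean level of 11 keratinocyte genes was 5.57 and 5.38 and then 5.63 and 8.20. The part of keratinocyte RNA in the called genes was not tested.

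Cd72, an inhibitory receptor known from B cells, rose from 6.39 and 5.38 to 12.83 and 12.63, and Cd82, a tetraspanin, from 5.52 and 5.38 to 10.29 and 11.05 (limma, adjusted p = 0.0398 and 0.00681). Ccr2, the monocyte chemokine receptor, was at the floor and then at 10.85 and 10.63, and Tmem119, known from microglia, at 5.38 and 9.53 and then at 13.29 and 13.57, but neither passed (limma, adjusted p = 0.177 and 0.0846).

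Among the receptors that fell, the mannose receptor Mrc1 (chr2:14229392-14332057, plus strand) was at 15.32 and 15.34 at E14.5 and at 11.11 and 11.16 at E18.5 (difference -4.20 ± 0.50 SE, limma, adjusted p = 0.00209). In each of the other 4 tissues its ages overlapped. Stab1, a scavenger receptor, fell from 16.50 and 16.66 to 12.51 and 11.99, and Lyve1, a hyaluronan receptor, from 13.69 and 14.41 to 9.05 and 9.45 (limma, adjusted p = 0.00479 and 0.0385). Mertk, which takes up dying cells, and its bridging ligand Gas6 fell, with differences of -3.93 ± 0.77 and -5.22 ± 0.73 (SE; limma, adjusted p = 0.029 and 0.00338).

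Igf1, a growth factor (chr10:87858265-87937042, plus strand), fell from 11.16 and 11.83 to 5.38 and 5.65 (difference -5.98 ± 0.95 SE, limma, adjusted p = 0.00681). Further genes that fell were Ms4a14, a membrane-spanning protein (-6.06), the transglutaminase subunit F13a1 (-5.24), the iron exporter Slc40a1 (-4.93), the pattern recognition receptor Tlr1 (-4.66) and the cholesterol exporter Abca1 (-3.70). Of 24 macrophage core genes 2 fell in skin, Mrc1 and Mertk, and none rose, with a median difference of 0.47, and Csf1r stood at 14.28 and 15.49 and then at 14.42 and 14.32.

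Some other receptors in skin had positive differences. Of 19 phagocytic and complement receptor genes 6 had a positive difference, and the median of the list was -0.41. Stab1 and Mertk were called as lower and none as higher. At an unadjusted p under 0.05, 5 were higher and these 2 lower, beside 4.87% and 4.85% of all genes. The 5 were Axl, a relative of Mertk, and the integrin genes Itgam, Itgax, Itgb2 and Itgb5. Axl differed by 4.04 ± 0.96 (SE; limma, adjusted p = 0.0818). Among the macrophage core genes 3 were higher (C1qa, Ctss and Itgam) and 4 lower (Maf, Mertk, Mrc1 and Msr1) at an unadjusted p under 0.05.

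**Figure D4:**
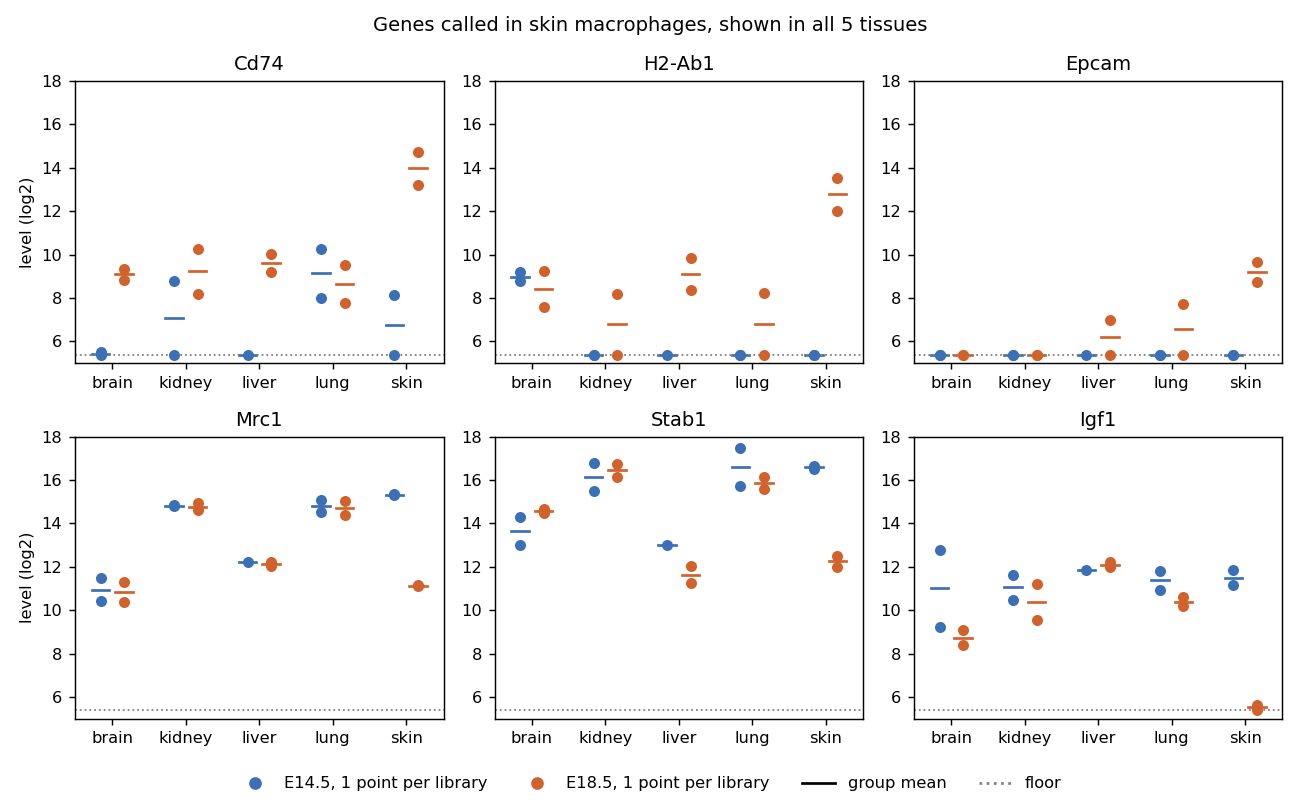
Level (log2) of 6 genes called in skin, in each library by tissue; blue points are E14.5, orange points E18.5, bars the group means and the dotted line the floor. In skin the orange points of Cd74, H2-Ab1 and Epcam lie above the blue ones and those of Mrc1, Stab1 and Igf1 below them; none of the 6 genes was called in another tissue.

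The skin count rested on few libraries. It was 8 without skin E14.5 replicate 1, 5 without skin E18.5 replicate 1 and 9 without skin E18.5 replicate 2, where the lone library left at an age was assumed to vary like the other groups. Of 24 skin genes named as called, 21 lost their call without skin E14.5 replicate 1 and 11 without replicate 2, and 19 and 18 of the 22 that could be fitted without skin E18.5 replicate 1 or 2. The count was 0 with only the 4 skin libraries in the fit, and 30 of the 68 genes were at the floor in most libraries of the other tissues, whose spread entered the test.

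In liver 55 genes were called (0.435%), 35 higher (0.277%) and 20 lower (0.158%), and 7.84% had an unadjusted p under 0.05. Liver had a single E14.5 library, so every p here takes the spread at that age from the other groups. Genes entered the fit if they reached 6.38 in at least 2 libraries. A gene that did so only in the E14.5 liver library was not tested, while one in both E18.5 liver libraries was. The numbers higher and lower in liver are therefore not on an equal footing. Vsig4, a complement receptor of Kupffer cells (chrX:96247203-96293438), was at the floor at E14.5 and at 12.72 and 12.31 at E18.5 (difference 7.13 ± 1.1 SE, limma, adjusted p = 0.00898). It was the 1 called member of 16 Kupffer cell genes, of which 15 had a positive difference, with a median of 1.02. Clec4f, the defining Kupffer cell lectin (chr6:83644542-83656187), stood at 9.56 and then at 15.39 and 15.11 and did not pass (5.69 ± 1.68 SE, limma, adjusted p = 0.253). Timd4, a receptor for dying cells, was at 11.10 and then at 12.07 and 11.74.

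The interferon-induced genes Oasl2 and Isg20 were among the liver calls. Oasl2 went from the floor to 11.65 and 11.03 and the exonuclease Isg20 from the floor to 11.03 and 11.46 (limma, adjusted p = 0.0387 and 0.0354). These calls were lost in 20 and 17 of 34 alternatives. The B cell gene Cd79a passed as well, from the floor to 9.28 and 9.31 (limma, adjusted p = 0.00736), and its call was lost in 2 of 32 alternatives, without the skin libraries and without a floor. Without either of the liver E18.5 libraries Cd79a did not reach the filter, so the 32 do not include these omissions. How far its call rests on 1 of these libraries could not be tested.

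Hepatocyte genes were also called, namely Serpina1a, at the floor and then at 9.29 and 10.53, and Fabp1, at the floor and then at 7.96 and 8.65. The mean level of 16 hepatocyte genes was 7.41 at E14.5 and 8.34 and 11.30 at E18.5, with albumin (Alb) at 10.19 and then 11.30 and 14.51. The mean of 20 erythroid genes was 11.83 and then 11.90 and 12.16, while the embryonic globin Hbb-y was at 15.96 and then at 11.60 and 8.97. The part of such RNA in the called genes was not tested.

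Grhl1, an epithelial transcription factor, fell in liver from 10.59 to the floor, the receptor-like kinase Ptk7 from 10.39 to the floor, and the mitochondrial enzyme Sardh from 10.98 to 5.38 and 6.70. All 3 were at the floor in most other libraries, as were 47 of the 55 genes. The liver count was 28 without liver E18.5 replicate 1 and 4 without replicate 2, 24 and 27 without skin E18.5 replicate 1 or 2, and 0 without all skin libraries or without a floor.

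Brain macrophages had 19 called genes (0.15%), 17 higher (0.134%) and 2 lower (0.0158%), and 8.98% had an unadjusted p under 0.05. Zfp82, a zinc finger gene, rose from the floor to 10.32 and 9.61, Ndor1, a diflavin reductase, from 7.03 and 7.41 to 11.65 and 11.62, and Pigg, an enzyme of GPI anchors, from the floor to 9.18 and 9.53 (limma, adjusted p = 0.00842, 0.0442 and 0.0282). Kbtbd7, a ubiquitin ligase adaptor, fell from 11.28 and 9.43 to the floor and the small GTPase Mras from 7.90 and 7.76 to the floor (limma, adjusted p = 0.0133 and 0.0282). The mean level of 20 microglia genes was 12.22 and 11.75 at E14.5 and 11.74 and 11.90 at E18.5, and none of them was called.

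The neuronal genes Gria2, Nfasc and Sst, chosen here after their values were seen, were among those that rose in brain. Gria2, a glutamate receptor, was at 6.77 and 5.38 and then at 8.79 and 8.99, Nfasc, an adhesion protein, at the floor and then at 8.15 and 8.60, and somatostatin (Sst) at the floor and then at 7.83 and 7.98. The mean of 15 neural genes was 8.40 and 7.29 and then 7.36 and 7.30. The brain count was 6, 288, 0 and 2 without brain E14.5 replicate 1 or 2 or E18.5 replicate 1 or 2, and 10 and 6 without the kidney E18.5 libraries. It was 6 without either of skin E14.5, and 5 and 4 without those of skin E18.5.

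In kidney 12 genes were called (0.0949%), 4 higher (0.0316%) and 8 lower (0.0633%), and 8.24% had an unadjusted p under 0.05. Besides H2-D1, the genes Mybpc3, Zfp605 and Gm13408 rose from the floor to 8.77 and 9.03, 9.37 and 8.35 and 9.03 and 8.51. Kbtbd2, a ubiquitin ligase adaptor, fell from 10.96 and 10.08 to the floor, and Sdr42e1, a dehydrogenase family member, from 9.15 and 9.69 to the floor (limma, adjusted p = 0.0483 and 0.0333). Sdr42e1 also fell in skin, from 10.07 and 9.37 to 5.38 and 6.10 (limma, adjusted p = 0.0076). The atypical cadherin Fat4 and the gelatinase Mmp9 fell in kidney, with differences of -3.96 ± 0.57 and -3.79 ± 0.67 (SE; limma, adjusted p = 0.0276 and 0.0483). The mean of 13 fibroblast genes was 7.27 and 5.56 in kidney at E14.5 and 5.66 and 5.38 at E18.5.

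Of the 9 kidney genes named as called 8 could be fitted without the 2 libraries that go against their labels, and all 8 lost their call. The kidney count was 1 without the library labelled kidney E18.5 replicate 1, 65 without kidney E18.5 replicate 2, and 33 and 32 without kidney E14.5 replicate 1 or 2. It was 0 without any 1 of the brain or lung libraries of E18.5, 2 without liver E18.5 replicate 2, 3 without either of skin E14.5 and 5 without either of skin E18.5.

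In lung 1 gene was called (0.00791%) and 621 (4.91%) had an unadjusted p under 0.05. Tchh, trichohyalin, rose from the floor to 8.79 and 8.71 (difference 3.37 ± 0.45 SE, limma, adjusted p = 0.022). Without the 2 libraries that go against their labels 19 genes were called and Tchh did not reach the filter. The count was 25 without the library labelled lung E14.5 replicate 1, 5 without the one labelled lung E18.5 replicate 1 and 2 without skin E14.5 replicate 1. It was 0 without lung E14.5 replicate 2, lung E18.5 replicate 2, skin E14.5 replicate 2 or any 1 of the E18.5 libraries of brain, kidney or skin.

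Cell-cycle genes were expressed at both ages. Mki67, the proliferation antigen, ranged from 12.87 to 14.91 (median 13.48) at E14.5 and from 12.09 to 13.82 (median 13) at E18.5. The ages overlapped in all tissues but brain, where it was at 14.58 and 13.07 and then at 12.09 and 12.22 (difference over the tissues -0.85 ± 0.34 SE, limma, adjusted p = 0.366). Of 30 genes of the G2 and M phases 7 were lower and none higher at an unadjusted p under 0.05, beside 6.06% and 4.4% of all genes, and their median of -0.19 turned to 0.02 with median centring. Of 30 S-phase genes 1 was lower and none higher, a share near that of all genes, with a median of -0.32. No cell-cycle gene passed after adjustment. In skin these medians were 0.28 and 0.35, and in the other 4 tissues they were negative. The cell cycle homology region (TTTGAA or TTCGAA, either strand) was in 21 of 26 promoters of G2 and M genes (80.8%), beside 21.7% of all genes.

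Genes of the fetal growth programme had a negative median difference, and none passed after adjustment. Lin28b, the RNA-binding protein that blocks let-7 processing, ranged from 5.38 to 9.90 (median 8.06) at E14.5 and from 5.38 to 8.24 (median 5.78) at E18.5. In kidney it was at 8.06 and 8.84 and then at 5.84 and 5.38, in liver at 9.74 and then at 6.84 and 5.73, and in lung at 7.38 and 9.90 and then at the floor, while in brain and skin the ages overlapped. Lower values without overlap in at least 3 tissues were found for 10.7% of genes tested. The difference of Lin28b was -1.70 ± 0.63 (SE; limma, adjusted p = 0.326), that of Igf2bp1, a binder of fetal mRNAs, -1.13 ± 0.64 (adjusted p = 0.562), and that of Cdkn1c, an imprinted kinase inhibitor, -1.42 ± 0.68 (adjusted p = 0.468). Of 21 genes on the list 10 were tested, and the median was -0.74. Lin28b had an E18.5 median below 6.38 and entered the fit mainly through E14.5 libraries, so the counts describe the list. At an unadjusted p under 0.05, 3 were lower and none higher, beside 6.06% and 4.4% of all genes. Without the 2 libraries that go against their labels 2 of 10 were lower, and without these and the library labelled lung E14.5 replicate 1, 1 of 9 was lower and 1 higher.

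C1qa, a subunit of complement C1q, ranged from 9.89 to 14.08 (median 13.20) at E14.5 and from 13.44 to 15.52 (median 13.99) at E18.5, with a difference of 1.44 ± 0.44 (SE; limma, adjusted p = 0.246). Of 8 complement genes tested 2 were higher and 1 lower at an unadjusted p under 0.05, beside 4.4% and 6.06% of all genes, with a median of 0.90. The transcription factor Maf differed by -0.98 ± 0.33 (SE; limma, adjusted p = 0.264), and it was lowest in skin at E18.5, at 10.98 and 10.88, and in liver E18.5 replicate 2, at 10.91. P2ry12, a purinergic receptor of microglia, stood at 15.52 and 13.94 and then at 13.24 and 13.21 in brain.

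Whether the change with age differed between tissues was tested directly, with an F test over the interaction terms in limma. Of 12644 genes, 0 (0%) had an adjusted p under 0.05, 1209 (9.56%) had an unadjusted p under 0.05, and the smallest adjusted p was 0.0811. The count was 28 without brain E14.5 replicate 2 and 7 without lung E14.5 replicate 2. The 8 genes with the smallest p were Gm28035, Ighm, Cobll1, Phyhd1, Htra3, Sardh, Cd82 and Grhl1.

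Phyhd1, a dioxygenase family member, fell in skin from 11.58 and 12.03 to 5.84 and 6.36 and stood in brain at 11.24 and 12.62 and then at 12.62 and 12.84. Htra3, a secreted protease, was at 9.07 and 9.5 in skin at E18.5 and at the floor in the other 17 libraries. Cobll1 fell in kidney from 8.5 and 8.85 to the floor and stood in skin at the floor and then at 7.41 and 7.82. Ighm, the heavy chain of IgM, was at the floor in the liver library of E14.5 and at 10.94 and 10.76 in liver at E18.5, and the lowest of the 16 libraries of the other tissues stood at 9.67.

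Levels at other ages, which were not tested, place these values in a longer course. In skin Cd74 had a mean of 6.76 at E14.5, 13.97 at E18.5, 18.25 at postnatal day 2 (P2), 18.68 at P8 and 18.04 at P21. Cd207, at the floor at both fetal ages, was at 11.60 to 13.39 in the 3 libraries of P2 and had means of 15.09 at P8 and 14.70 at P21. Mrc1 had means of 15.33, 11.14, 12.31, 7.29 and 7.63 at the same ages, so that P2 lay above E18.5.

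In liver Clec4f had a mean of 10.87 at E12.5, 9.56 at E14.5 (1 library), 15.25 at E18.5 and 17.40 at P21, and Vsig4 was at 5.76, 5.38, 12.51 and 14.63. Irf7 took different courses after E18.5. In lung it had a mean of 12.02 at E18.5 and 5.70 at P2 and stood at 5.38 and 5.44 in the single libraries of P8 and P21. In liver it had means of 12.95, 11.65 and 13.53 at P2, P8 and P21, and in kidney of 9.24, 10.43 and 10.98. Lin28b was at the floor in all libraries of the 5 tissues at P8 and P21.

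**Figure D5:**
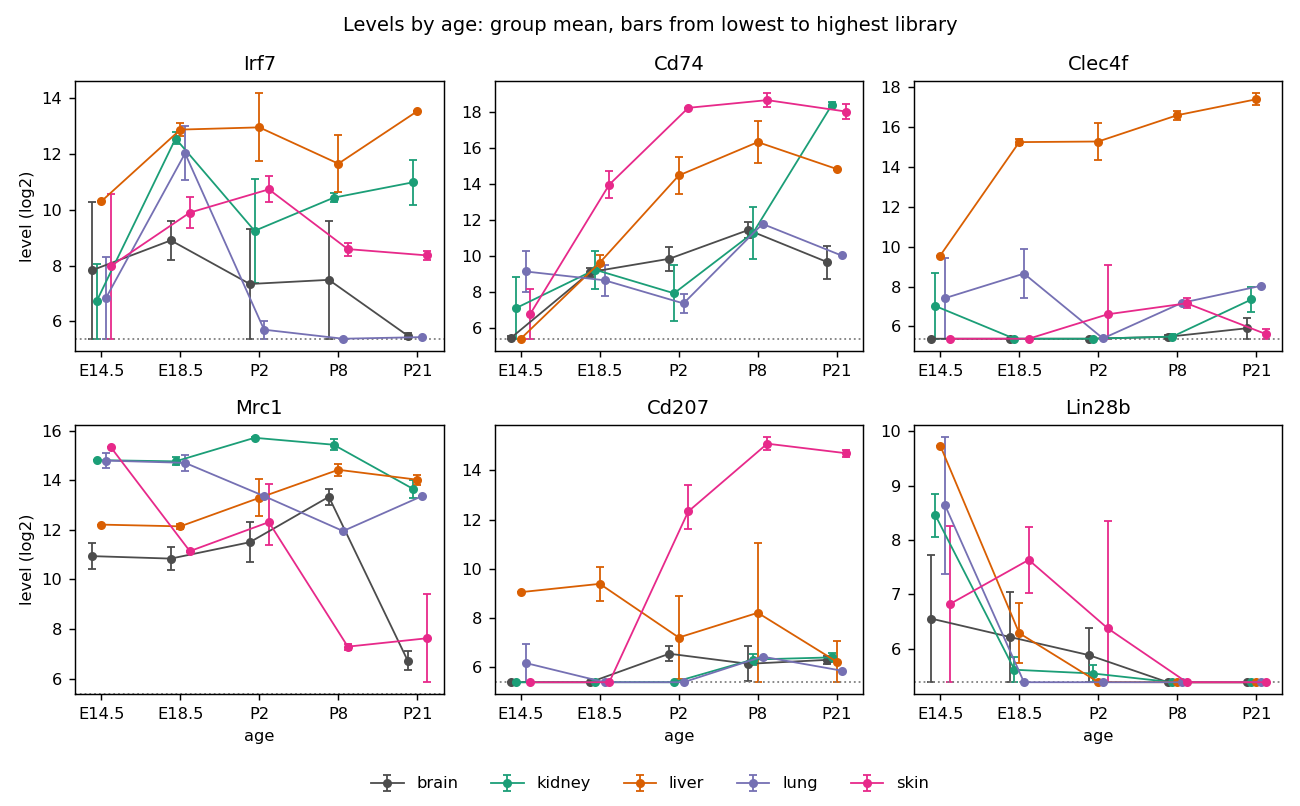
Mean level (log2) of 6 genes by age (E14.5, E18.5, P2, P8, P21), 1 line per tissue, with bars from the lowest to the highest library and no bar for a single library; the dotted line is the floor. Cd207 leaves the floor in skin after E18.5, Clec4f stays high in liver from E18.5, and Irf7 is at or near the floor in lung after E18.5.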

How the data were processed

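The authors deposited 1 table of 37521 Ensembl transcripts in 93 libraries; its values are log2 expression that had been normalized before it was deposited, by a method not stated, and base 2 was inferred from their range of 0.836 to 19.0. The submitters' processing notes name Bowtie 1.1.1, DESeq2 and mm10, with no role for each. The table holds no counts, so sequencing depth is unknown. Of the transcripts, 36714 were matched to GENCODE M21 (mm10) and 807 were not, and the linear values above a floor of 5.38 (the highest low band of any library, 4.875, plus 0.5) were summed per gene to 14189 genes on the log2 scale.

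Ages were compared with limma 3.58.1 (R 4.3.3), with an intensity trend and Benjamini-Hochberg adjustment over all genes tested, as a shared difference with tissue as covariate, within each tissue in 1 fit over the tissues, and as an interaction. Genes had to reach 6.38 in at least 9 libraries (shared difference) or 2 (other fits). A gene was called at an adjusted p under 0.05 and a log2 difference of at least 1. On simulated data for the shared difference, 46 of 50 genes raised by 3 and 24 of 50 raised by 1.5 were found. Of 50 lowered by 3 and 50 lowered by 1.5, 42 and 13 were found, and 4 of 9364 unchanged genes were called. For a change of 5 in skin alone, 37 of 50 raised and 32 of 50 lowered genes were found, and for a change of 3, 14 and 8. In the skin run 9 of 9364 unchanged genes were called. The changed genes had means at least 2 above the floor in each tissue, so these shares do not describe genes that leave the floor. The simulation held the 9564 genes that reached 6.38 in at least 9 libraries, while the real tissue fits held 12644. The numbers of unchanged genes called therefore do not describe genes at the floor in most libraries.

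Genes were named by a rule: in each tissue up to 3 called genes that rose most and up to 3 that fell most, with a mean of at least 2 above the floor in the higher group, the 8 with the smallest interaction p, up to 4 called members of each list and a set of marker genes; others are said to be chosen after their values were seen, which also holds for Irf7, Oas1a, Rtp4, Oas3, Ifit3, Gbp7, Xaf1, Axl, H2-K1, Ciita, Car4, Ddx3y and Eif2s3y. The members and lists were chosen with earlier results of these data known. Alternatives changed the scaling, floor, filter, transcript summary, trend, weights, replicate block and the libraries and tissues used. The labels name no batch. Some named results are not reported here.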

Additional observations from a re-analysis of the deposited data

Results flagged for a closer look

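Within the 19 libraries, 132 groups of values (a gene or list mean in the libraries of 1 age) were examined for a single library far from the nearest of the others, and 12 were found. In values drawn from 1 normal distribution about 1 in 20 would be found. Each group here pools 5 tissues and some hold values at the floor, so that rate does not apply and the count cannot be set against it. The gap exceeded Dixon's critical value in each.

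At E14.5 the mean of the interferon-response list was 6.517 in brain replicate 1, the lowest of the 9 libraries, and that of the phagocytic and complement receptors 10.30 in the library labelled lung E14.5 replicate 1. Oas3 stood at 7.788 in kidney replicate 2 and Pid1 at the floor of 5.38 in the liver library. Among markers of other cells, the neutrophil granule list was at 6.588 in the liver library, the kidney epithelium list at 6.442 and the fibroblast list at 7.269 in kidney replicate 1, and the keratinocyte list at 5.774 in lung replicate 2.

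At E18.5 liver replicate 2 stood apart in its hepatocyte list at 11.3, its megakaryocyte list at 8.429 and its dendritic cell list at 5.829. The keratinocyte list was at 8.195 in skin replicate 2. The part of these libraries in the called genes was not tested.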

How the results depend on the processing

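Of 82 gene results run under the alternatives none changed direction; the median of the G2 and M phase list did, from -0.19 to 0.02 with median centring. Each of the 82 was set beside each alternative in which it was fitted, which gave 2858 comparisons. Of these 2237 kept their side of the threshold, 599 lost a call and 22 gained one. The 2237 include results, such as C1qa, that were called neither in the main fit nor in the alternative. The genes called over the 5 tissues, 0 in most alternatives, were 4 with median centring and 14 without the brain libraries, and 0 to 8 when 1 library was left out. The brain count of 19 was 12 with quantile normalization, 7 with a floor 1 higher, 1 without a floor, 54 without a filter, 0 without the intensity trend, 1 with quality weights, 0 in a fit of brain alone, 6, 0, 10 and 1 without kidney, liver, lung or skin, and 7 and 0 without the 2 or 3 libraries that stand apart (leave-one-out 0 to 288). The kidney count of 12 was 6 with median centring, 1 with a floor 1 higher, 1 without liver, and 0 without a floor, without the trend, with weights, in kidney alone, without brain, lung or skin and without the 2 or 3 libraries (leave-one-out 0 to 65). The liver count of 55 was 34 with a floor 1 higher, 0 without a floor, 129 without a filter, 13 without the trend, and 11, 20, 34 and 0 without brain, kidney, lung or skin (leave-one-out 4 to 66). The lung count of 1 was 3 without a filter, 19 and 7 without the 2 or 3 libraries, and 0 with a floor 1 higher, without a floor, without the trend, with weights, in lung alone and without brain, kidney, liver or skin (leave-one-out 0 to 25). The skin count of 68 was 103 with quantile normalization, 41 without the trend, 315 with weights and 0 in skin alone (leave-one-out 5 to 82). The interaction count of 0 was 2 with quantile normalization, 1 without a floor, 124 without a filter and 13 with weights (leave-one-out 0 to 28). The cause of these shifts was not tested. A fit of liver alone is not possible with 1 library at E14.5, and a term for sets of libraries was not run because all 19 fell into the same set.

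Same-numbered libraries of the 2 ages did not deviate together (correlations of 0.0165 in brain, 0.0237 in kidney, -0.0909 in lung and 0.0571 in skin), so the numbers were not taken to pair the ages. Across tissues within an age, the deviations of replicate 1 correlated at -0.0362 to 0.185 over 6 pairs of tissues at E14.5, 3 of them over 0.1, and at -0.0327 to 0.0749 over 10 pairs at E18.5. Whether libraries of 1 number share an embryo or litter is not given in the labels used here. With the replicate block the counts were 0 over the tissues, 11 in brain, 0 in kidney, 39 in liver, 0 in lung, 63 in skin and 0 for the interaction. With no counts in the table, depth limits cannot be given, and with 1 or 2 libraries per group only differences far larger than the spread could pass.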

Other observations

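Lysosomal genes had median differences of opposite sign in different tissues. Of 32 tested in each tissue, 6 were lower and none higher at an unadjusted p under 0.05 in brain, with a median difference of -0.93, while in liver 5 were higher and none lower, with a median of 1.16. Of all genes 4.91% were lower and 4.07% higher in brain, and 3.27% lower and 4.56% higher in liver. In skin 5 were lower and 1 higher (median -0.34), beside 4.85% and 4.87% of all genes. In kidney 3 were higher and none lower (0.77), and in lung 2 passed in each direction (0.20), beside 3.55% of all genes higher in kidney and 2.53% in lung. No lysosomal gene was called in any tissue, and the difference between tissues was not tested for the list. Glycolysis genes had medians of -0.88 in brain and 1.0 in skin. At an unadjusted p under 0.05, 2 of 22 were higher and none lower in brain, beside 4.07% and 4.91% of all genes. In skin 6 of 22 were higher and 1 lower, beside 4.87% and 4.85% of all genes.

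Cd207, the gene of langerin, was above the floor in all 3 liver libraries, at 9.05 at E14.5 and at 10.07 and 8.69 at E18.5, and at 6.95 in the library labelled lung E14.5 replicate 1, and at the floor in the other 15.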
